A study of Mus musculus with 20 samples.

Results

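In all, 9 genes of DNA break repair and checkpoint signalling were followed in mouse ovary: Brca1, Brca2, Palb2, Mre11a, Atm, Chek1, Chek2, Trp53 and Trp63. They were chosen by name, with earlier results of these data known, and all 9 were found among the 23457 genes counted in each of 20 libraries. Each library came from ovarian tissue of 1 of 20 females of the Ames dwarf strain, which formed 4 groups of 5. Normal mice (N/df) carry 1 copy of the df allele and were sampled at 6 and at 22 months of age. Dwarf mice (df/df) carry 2 copies and were sampled at the same ages. The df allele is carried in the germline, and homozygous mice lack growth hormone, prolactin and thyrotropin from the pituitary, so that each dwarf ovary came from a mouse without these pituitary hormones. Polyadenylated RNA was sequenced, and the normal groups carry the allele too, in 1 copy. The study, by its title, is about how reproduction ages in a mouse that lives long.

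A break through both strands of DNA is bound by a complex that contains MRE11, the nuclease encoded by Mre11a, which recruits and activates the kinase ATM. BRCA1, PALB2 and BRCA2 act in sequence in homologous recombination, in which the lost sequence is copied from an intact chromatid. ATM and its relative ATR pass the signal to the checkpoint kinases CHK2 and CHK1, which hold the cell cycle, and p53 (Trp53) turns on genes of arrest and cell death. In the ovary these proteins are known from the resting oocyte, where TAp63, a product of Trp63, is the p53 relative that CHK2 activates to remove oocytes with unrepaired breaks. Brca1 and Brca2 are also linked to the size of the oocyte reserve, and recombination genes act in the fetal ovary when oocytes pass through meiotic prophase.

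Chek1, which encodes the replication checkpoint kinase CHK1, was lower in old than in young dwarf ovaries, by 3.39-fold (log2 change -1.76 ± 0.506 SE, n = 5 mice per age, edgeR adjusted p = 0.0310). The call was lost in 8 of the 10 fits with 1 library left out. It was kept in 12 of 13 other settings, and lost with dwarf 22-month replicates 1 and 4, a very similar pair, summed (edgeR adjusted p = 0.0519). No other gene of the 9 passed the threshold of 0.05 in any of the 4 comparisons of age or genotype. In the same comparison 11.2% of the 16099 genes tested passed, and 8.27% of those tested passed toward lower levels, so that 1 of 9 is near the background. With age in normal mice 0 of the 9 passed, against 6.75% of all genes, and 4 of the 9 had an unadjusted edgeR p under 0.05, as did 3748 of the 16099 genes. Between genotypes 0 of 9 passed at 6 months (4.57% of all genes) and 0 of 9 at 22 months (3.81%). In whole ovaries, fewer cells of a type and less RNA per cell cannot be told apart.

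Promoters of 4 genes are shown, those of the 3 members with the largest log2 changes with age (Chek1, Brca1 and Brca2) and that of Chek2, the gene whose level was lower in every young dwarf ovary than in every young normal one. Each runs 5′ to 3′ over 190 bases and ends at the base before the transcript start, in RefSeq's promoter table on GRCm38.p6, in which 8 of the 9 genes were matched. Capitals mark matches to 3 kinds of motif described after them, on either strand.
Chek1, chr9:36726659-36726848, minus strand: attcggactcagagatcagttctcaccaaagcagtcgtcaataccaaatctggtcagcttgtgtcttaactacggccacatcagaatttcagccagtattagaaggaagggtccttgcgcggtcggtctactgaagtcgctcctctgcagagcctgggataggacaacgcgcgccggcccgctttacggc
Brca1, chr11:101551956-101552145, minus strand: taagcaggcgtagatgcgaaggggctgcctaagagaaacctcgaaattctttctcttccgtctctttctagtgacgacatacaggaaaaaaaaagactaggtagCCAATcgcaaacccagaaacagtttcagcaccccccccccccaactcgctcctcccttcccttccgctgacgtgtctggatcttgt
Brca2, chr5:150522431-150522620, plus strand: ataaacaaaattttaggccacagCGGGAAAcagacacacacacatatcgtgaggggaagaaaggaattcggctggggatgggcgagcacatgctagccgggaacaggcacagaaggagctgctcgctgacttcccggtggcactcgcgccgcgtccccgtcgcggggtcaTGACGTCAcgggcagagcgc
Chek2, chr5:110839793-110839982, plus strand: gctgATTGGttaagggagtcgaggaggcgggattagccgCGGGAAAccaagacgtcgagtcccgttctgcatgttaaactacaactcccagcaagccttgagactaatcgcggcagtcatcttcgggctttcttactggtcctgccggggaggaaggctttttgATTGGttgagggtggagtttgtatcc
Past the start, the first 30 bases of Brca2 and bases 31 to 50 of Chek1 hold 1 match each.
Brca2, chr5:150522621-150522650, plus strand: gggctTTTCGCGggagcgggagccgtgagg
Chek1, chr9:36726609-36726628, minus strand: caagcaggtTTTGGCGggaa

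The motifs were searched on both strands of 300 bases around each start, 250 before it and 50 after it. The core of sites for E2F factors, which drive genes of the S phase, was searched as TTTGGCG or TTTCGCG or TTTCCCG or TTTGCCG. It was found in Chek1, Brca2 and Chek2, and in 6.70% of all 32851 promoters in the table. The CCAAT box, bound by NF-Y, was found in Brca1, Atm, Mre11a, Palb2, Chek2 and Trp53, and in 37.4% of all promoters. The cyclic AMP response element TGACGTCA was found in Brca2, at 20 bases before the start, and in 1.79% of all promoters. The CHR element of mitotic genes, searched as TTTGAA or TTCGAA, was found in none of the 8 and in 19.2% of all promoters. The motifs do not overlap one another in these windows, and a match describes letters, not binding. Counted from the start, the E2F-type cores began at -167 and 6 in Brca2, at 40 in Chek1 and at -151 in Chek2.

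Library totals over genes lay between 1365640 and 36068284 counts, with group medians from 10120399 (dwarf, 22 months) to 16846616 (dwarf, 6 months). Several libraries stood apart from their groups. Normal 6-month replicate 2 had a summed oocyte marker level of 49.4 CPM (counts scaled to the library's total) where that group's median was 421 CPM, and the highest summed oviduct and ciliated cell level of all 20 libraries, 6859 CPM. Normal 6-month replicate 3 was the shallowest library. Normal 22-month replicate 3 held lymphocyte markers at 1139.6 CPM, against a group median of 69.7 CPM. The most similar of the 40 pairs of libraries within a group were dwarf 22-month replicates 1 and 4, whose chi-square was 2.46 for each degree of freedom where the next pair had 12.2. They were counted as 2 mice, and whether they are independent was not tested. The oocyte, granulosa and luteal markers of an ovary were detected in every group, and no marker on these lists was at 0 in all 5 libraries of a group.

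Per length of exon, Trp53 was far above the others, with a median of 90.4 RPKM (CPM per kilobase of exon) over the 20 libraries and a range from 67.8 to 127 RPKM. Mre11a and Chek2 followed at medians of 4.07 and 3.99 RPKM, with ranges of 1.60 to 5.57 and 2.72 to 7.62 RPKM. Atm stood at 1.98, Brca2 at 1.39 and Palb2 at 1.25 RPKM. Trp63, Brca1 and Chek1 were lowest, at medians of 0.820, 0.785 and 0.717 RPKM. Below Trp53, the ranges of neighbours in this order overlapped, so that among neighbours only Trp53 stood outside the spread between libraries. Farther apart in the order, the lowest Chek2 value, 2.72 RPKM, was above the highest of Brca2, Palb2, Trp63 and Brca1 (2.7147, 2.102, 2.0281 and 2.5741 RPKM). In the deposited annotation (mm10) the exons of none of the 9 genes overlap those of another gene. Brca1, Atm, Palb2 and Chek2 each have a neighbour that starts close by and runs the other way: Nbr1 at 152 bases, Npat at 376, Dctn5 at 95 and Hscb at 240 bases.

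**Figure D1:**
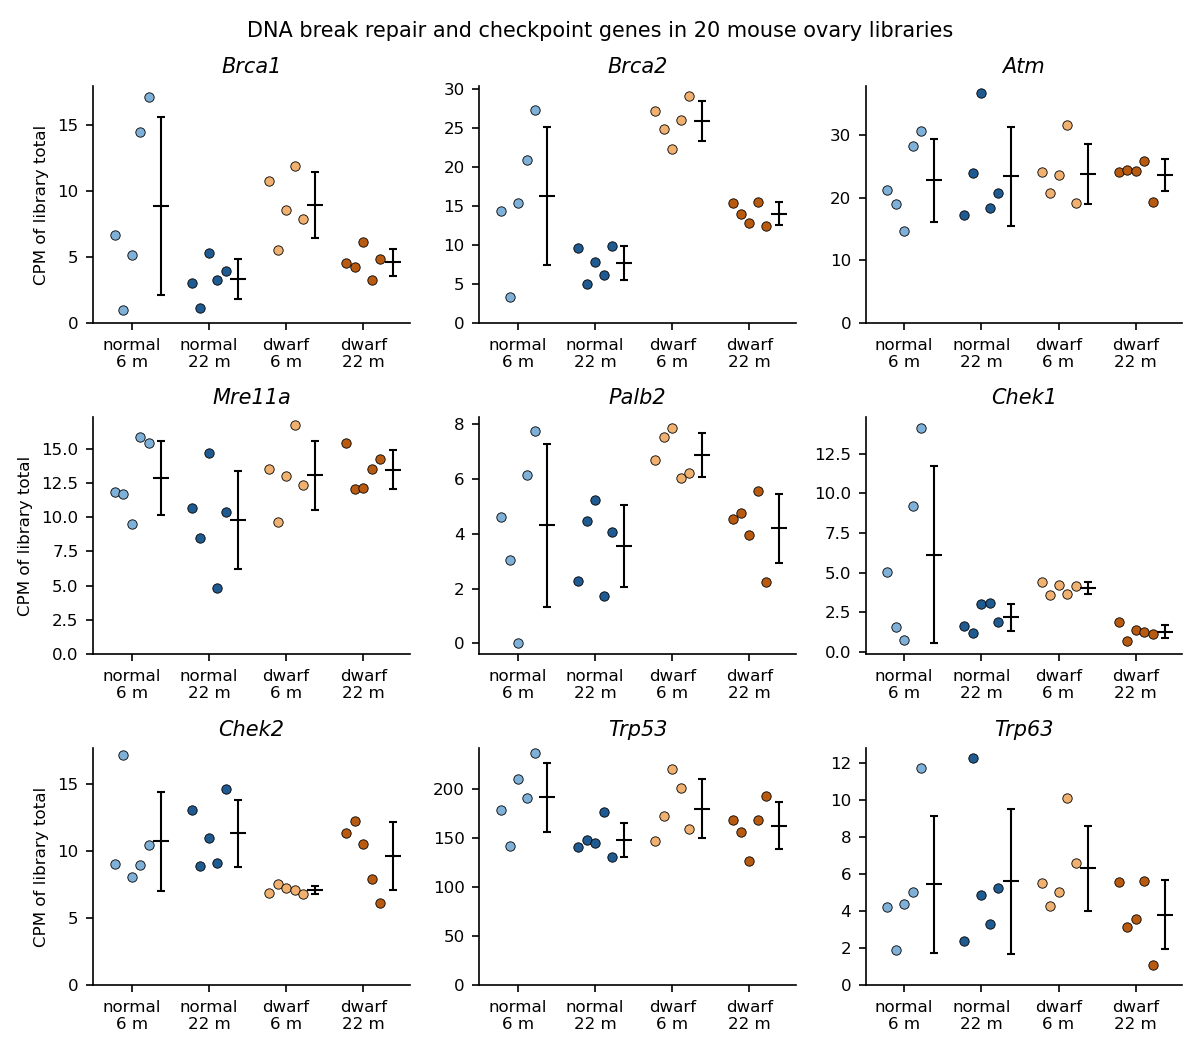
CPM of the 9 genes in each library (1 point per mouse, 5 per group, horizontal tick at the group mean, bars of 1 SD), each panel with its own vertical axis in CPM. Brca2 was lower in all 5 old than in all 5 young dwarf ovaries, and so was Chek1, while Atm had overlapping values in all 4 groups.

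Brca1 (chromosome 11, 101488764 to 101551955, minus strand) encodes a ubiquitin ligase that acts in homologous recombination and recruits PALB2. In normal ovaries at 6 months, replicates 1 to 5 held 6.68, 0.947, 5.13, 14.4 and 17.1 CPM. At 22 months they held 3.01, 1.12, 5.31, 3.28 and 3.94 CPM. Young normal mice differed widely, with replicate 2 lowest, and 3 of 5 were above every old one. In dwarf mice Brca1 stood at 10.8, 5.52, 8.55, 11.9 and 7.85 CPM at 6 months and at 4.53, 4.25, 6.10, 3.23 and 4.82 CPM at 22 months, where only the young replicate 2 reached into the old range. The difference with age did not pass in either genotype: log2 change with age of -1.44 ± 0.511 in normal mice (edgeR adjusted p = 0.0965) and -1.04 ± 0.502 in dwarf mice (edgeR adjusted p = 0.182). Dwarf and normal mice differed by -0.04 ± 0.494 at 6 months and 0.36 ± 0.507 at 22 months (edgeR adjusted p = 0.982 and 0.799).

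Brca2 (chromosome 5, 150522623 to 150569749, plus strand) encodes a mediator of homologous recombination that acts on resected DNA. Normal mice held 14.4, 3.35, 15.4, 20.9 and 27.3 CPM at 6 months and 9.57, 4.98, 7.78, 6.17 and 9.95 CPM at 22 months. Dwarf mice held 27.3, 24.9, 22.3, 26.0 and 29.1 CPM at 6 months and 15.5, 14.0, 12.8, 15.5 and 12.4 CPM at 22 months. In normal mice every young ovary except that of replicate 2 was above all old ones, and in dwarf mice the ages did not overlap. Old dwarf mice were also all above old normal mice. The log2 change with age was -1.10 ± 0.344 in normal mice (edgeR adjusted p = 0.0594) and -0.97 ± 0.338 in dwarf mice (edgeR adjusted p = 0.0692), both just outside the threshold. Dwarf minus normal was 0.64 ± 0.338 at 6 months (edgeR adjusted p = 0.335) and 0.77 ± 0.340 at 22 months (edgeR adjusted p = 0.232). Without normal 6-month replicate 2 the change in normal mice was -1.33 and passed (edgeR adjusted p = 0.000241), with Brca1 at -1.70 (0.00276).

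Palb2 (chromosome 7, 122107265 to 122132946, minus strand) encodes the bridge between BRCA1 and BRCA2. Its levels were 4.62, 3.06, 0, 6.15 and 7.76 CPM in young and 2.27, 4.47, 5.25, 1.74 and 4.07 CPM in old normal ovaries. The count of 0 was in the shallowest library, where 0 of 1365640 counts allows up to 2.20 CPM (3 counts, counting error only). Dwarf ovaries held 6.70, 7.54, 7.88, 6.05 and 6.21 CPM at 6 months and 4.53, 4.74, 3.94, 5.55 and 2.22 CPM at 22 months, without overlap. The log2 change with age was -0.78 ± 0.427 in dwarf mice (edgeR adjusted p = 0.237) and -0.34 ± 0.430 in normal mice (edgeR adjusted p = 0.667). Dwarf minus normal was 0.57 ± 0.426 at 6 months and 0.13 ± 0.430 at 22 months (edgeR adjusted p = 0.529 and 0.940).

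Mre11a (chromosome 9, 14784707 to 14834417, plus strand), the break-sensing nuclease, had overlapping groups throughout. Young and old normal ovaries held 11.8, 11.7, 9.52, 15.9 and 15.5 CPM and 10.7, 8.50, 14.7, 4.82 and 10.4 CPM. Young and old dwarf ovaries held 13.6, 9.68, 13.0, 16.7 and 12.3 CPM and 15.5, 12.1, 12.1, 13.5 and 14.3 CPM. The lowest value, in normal 22-month replicate 4, rested on 25 counts. The log2 change with age was -0.40 ± 0.237 in normal mice (edgeR adjusted p = 0.320) and -0.04 ± 0.234 in dwarf mice (edgeR adjusted p = 0.930), the latter turning to 0.0034 with the RLE scaling. Dwarf minus normal was -0.02 ± 0.236 at 6 months and 0.35 ± 0.235 at 22 months (edgeR adjusted p = 0.983 and 0.490).

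Atm (chromosome 9, 53437122 to 53536671, minus strand) encodes the apical kinase of the break response, in 64 exons. Its group means were nearly equal: 22.7 ± 6.58 and 23.4 ± 7.87 CPM in young and old normal mice, and 23.8 ± 4.76 and 23.6 ± 2.50 CPM in young and old dwarf mice (SD, n = 5). Single libraries ranged from 14.6 to 30.6, from 17.2 to 36.7, from 19.2 to 31.5 and from 19.3 to 25.8 CPM in the same order. The highest of all, 36.7 CPM, was normal 22-month replicate 3, the library with the high lymphocyte markers. Log2 differences in the 4 comparisons lay between -0.09 and 0.03 with SE of 0.214 or 0.215, and edgeR adjusted p from 0.804 to 0.973. Leaving out 3 libraries that stood apart, listed with the age comparison, made the difference in normal mice -0.35 rather than 0.03, and it still did not pass (edgeR adjusted p = 0.155).

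Chek1 (chromosome 9, 36708482 to 36726658, minus strand) encodes CHK1, the kinase that ATR activates at stalled forks and resected breaks. Dwarf ovaries held 4.43, 3.56, 4.24, 3.66 and 4.16 CPM at 6 months and 1.86, 0.692, 1.34, 1.25 and 1.11 CPM at 22 months. The 5 young dwarf mice lay close together (4.01 ± 0.379 CPM, SD) and every old one was below them (1.25 ± 0.423 CPM). The old values rest on few counts, 6 to 18 per library. Normal ovaries held 5.01, 1.53, 0.732, 9.18 and 14.2 CPM at 6 months and 1.63, 1.20, 3.01, 3.09 and 1.86 CPM at 22 months. Young normal mice spanned both sides of the old range, from replicate 3 with 1 count to replicate 5 with 230 counts. The log2 change in normal mice was -1.58 ± 0.491 (edgeR adjusted p = 0.0590).

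The call of Chek1 in dwarf mice was narrow when a library was left out, though kept in 12 of 13 other settings. It passed without replicate 2 of the young or replicate 1 of the old dwarf mice, and did not pass in the 8 other fits with 1 library of the comparison left out. Those were the fits without young dwarf replicates 1, 3, 4 or 5 and without old dwarf replicates 2, 3, 4 or 5, with edgeR adjusted p from 0.0522 to 0.0845 and log2 changes from -1.76 to -1.60. In those fits 4.94% to 8.02% of all genes passed, against 11.2% with all libraries. With dwarf 22-month replicates 1 and 4 summed as 1 library the log2 change of Chek1 was -1.84 (edgeR adjusted p = 0.0519). In normal mice the change passed without 6-month replicate 2 (-1.81, edgeR adjusted p = 0.00401) and without 6-month replicate 3 (-1.74, 0.0294). Dwarf minus normal was -0.68 ± 0.473 at 6 months and -0.86 ± 0.510 at 22 months for Chek1 (edgeR adjusted p = 0.487 and 0.409).

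Chek2 (chromosome 5, 110840017 to 110874133, plus strand) encodes CHK2, the kinase downstream of ATM. Young normal ovaries held 8.99, 17.1, 8.05, 8.96 and 10.4 CPM and young dwarf ovaries 6.82, 7.54, 7.20, 7.10 and 6.76 CPM. Every young dwarf mouse was below every young normal one, and the dwarf values had the smallest SD relative to the mean of any gene and group here (7.09 ± 0.312 CPM). At 22 months the values were 13.0, 8.85, 11.0, 9.06 and 14.6 CPM in normal and 11.3, 12.3, 10.5, 7.88 and 6.11 CPM in dwarf mice, and overlapped. Dwarf minus normal at 6 months was -0.64 ± 0.224 on the log2 scale and did not pass (edgeR adjusted p = 0.116). DESeq2, which called 8.78% of all genes here, gave -0.68 with an adjusted p of 0.0489, the 1 of 13 other settings that passed. The edgeR difference passed in 0 of 10 fits with 1 library left out. Without normal 6-month replicate 2 that difference was -0.37 (edgeR adjusted p = 0.297). At 22 months it was -0.32 ± 0.222 (edgeR adjusted p = 0.495). Unlike Chek1, Chek2 had positive log2 differences with age, 0.05 ± 0.224 in normal and 0.36 ± 0.222 in dwarf mice (edgeR adjusted p = 0.926 and 0.291), and neither passed.

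Trp53 (chromosome 11, 69580359 to 69591873, plus strand) encodes p53. Normal ovaries held 179, 142, 210.2, 191 and 237 CPM at 6 months and 141, 148, 145, 177 and 130.4 CPM at 22 months. The 4 young normal mice other than replicate 2 lay above all old ones. Dwarf ovaries held 147, 172, 221, 201 and 159.8 CPM at 6 months and 169, 156, 127, 169 and 194 CPM at 22 months, with wide overlap. The log2 change with age was -0.41 ± 0.158 in normal mice (edgeR adjusted p = 0.121) and -0.23 ± 0.157 in dwarf mice (edgeR adjusted p = 0.351). Without normal 6-month replicate 2 the first was -0.47 and passed (edgeR adjusted p = 0.0235). Dwarf minus normal was -0.14 ± 0.158 and 0.05 ± 0.157 at 6 and 22 months (edgeR adjusted p = 0.702 and 0.936). With counts of 287 to 5764 per library, Trp53 had the most counts of the 9 genes.

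Trp63 (chromosome 16, 25683765 to 25892088, plus strand) encodes p63, a marker of basal epithelium as well as of oocytes. The annotation lists 8 transcripts: 3 start at 25683765 and 5 start 118151 bases downstream, at 25801916. Gene counts do not separate them. Normal ovaries held 4.24, 1.89, 4.39, 5.04 and 11.8 CPM at 6 months and 2.37, 12.3, 4.89, 3.28 and 5.25 CPM at 22 months. Dwarf ovaries held 5.52, 4.27, 5.05, 10.1 and 6.63 CPM at 6 months and 5.59, 3.16, 3.57, 5.64 and 1.11 CPM at 22 months. In 3 of the 4 groups 1 mouse was well above the rest. The highest, in normal 22-month replicate 2, came from the library with the highest summed basal epithelium markers (869.9 CPM, against a group median of 199 CPM). The log2 change with age was 0.02 ± 0.498 in normal and -0.80 ± 0.495 in dwarf mice (edgeR adjusted p = 0.988 and 0.293). Dwarf minus normal was 0.17 ± 0.495 at 6 months and -0.66 ± 0.497 at 22 months (edgeR adjusted p = 0.906 and 0.547).

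**Figure D2:**
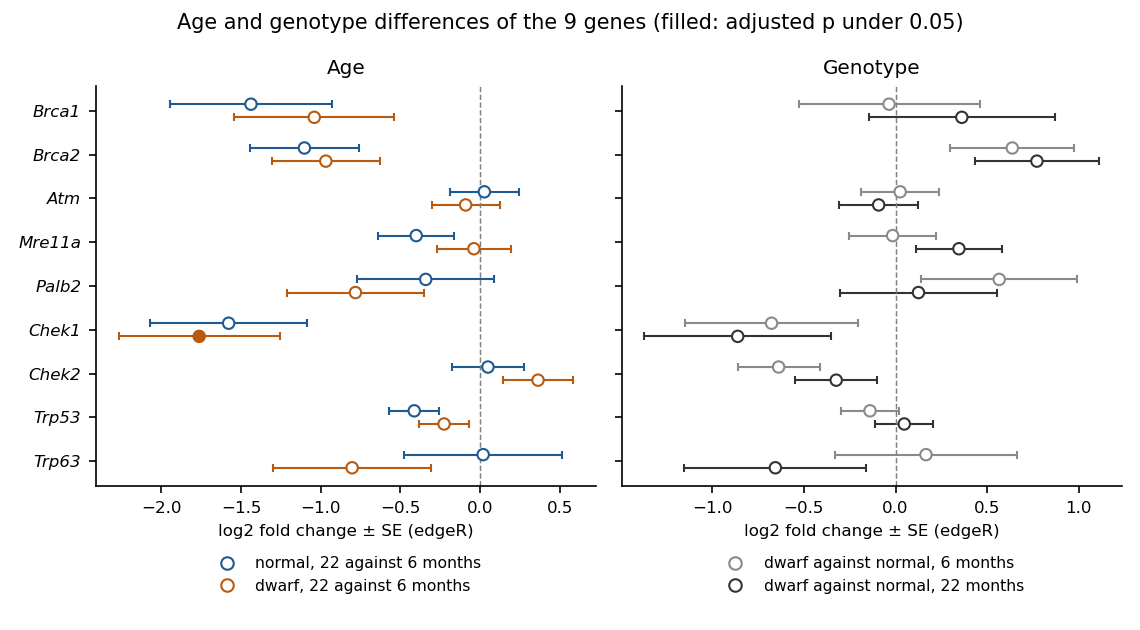
Log2 differences of the 9 genes (horizontal axis) in the comparisons of age and genotype, with bars of 1 standard error. Filled points mark an edgeR adjusted p under 0.05, which Chek1 alone reached, at -1.76 with age in dwarf mice.

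Age in normal mice was the comparison in which the genes were most often close to the threshold. Brca1, Brca2 and Chek1 had log2 changes from -1.58 to -1.10 and Trp53 of -0.41, each with an unadjusted p under 0.05 and none past adjustment over 16099 genes. The median over the 9 was -0.40, beside -0.02 over all genes tested, with 6 negative and 3 positive. Of the 9, 0 had ages that did not overlap in CPM, against 2.39% of all genes. DESeq2 and limma voom each called 3 of the 9, Brca1, Brca2 and Chek1, where they called 11% and 24% of all genes. The 3 libraries that stand apart are replicates 2 and 3 of the young and replicate 3 of the old normal mice. Without them, 29.6% of all genes passed in edgeR in either direction, and 2107 of 16366 fell. Of the 9 genes 5 passed, all lower. These were Brca1 (-2.12, adjusted p = 0.000950), Brca2 (-1.38, 0.000613), Chek1 (-2.29, 0.000358), Mre11a (-0.67, 0.0458) and Palb2 (-0.90, 0.0452). Without normal 6-month replicate 2 alone it called 4 of 9, against 26.9% of all genes. Fitted on the 10 normal libraries alone, it called 0 genes of any kind, where 1903 had an unadjusted p under 0.05.

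In dwarf mice the median log2 change with age over the 9 was -0.78, beside 0.0021 over all genes, and 8 of 9 were negative, Chek2 being the exception. Brca2, Palb2 and Chek1 had ages without overlap, all lower at 22 months, which makes 3 of 9 where 22.1% of all genes did not overlap and 12.2% did so toward lower levels. Fitted on the 10 dwarf libraries alone, edgeR called 4 of 9 and 33.5% of all genes. Without the 3 normal libraries that stand apart, which share in the estimate of spread, it called Brca1, Brca2, Chek1 and Palb2 and 28.7% of all genes. DESeq2 called Brca2 and Chek1 (17.1% of all genes), and limma voom called 4 of 9 where it called 46.7% of all genes. With dwarf 22-month replicates 1 and 4 summed, 0 of 9 and 6.8% of all genes passed.

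Between genotypes no gene of the 9 passed. The median log2 difference, dwarf minus normal, was -0.02 at 6 months and 0.05 at 22 months, beside -0.04 at both ages over all genes. At 6 months 1 of 9, Chek2, had groups that did not overlap (5.88% of all genes, 1.81% being lower in dwarf mice), and at 22 months 1 of 9, Brca2, higher in dwarf mice (7.24%, 5.16% being higher). Brca2 at 22 months passed with limma voom (0.74, adjusted p = 0.0422) and in edgeR without the 3 libraries that stand apart (0.79, adjusted p = 0.0226). Chek1 at 6 months passed in edgeR without those libraries (-1.20, adjusted p = 0.0216), being lower in dwarf mice. In these fits 14.2%, 10.8% and 12.2% of all genes passed.

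The difference between the age responses, that of dwarf mice minus that of normal mice, was tested as an interaction. It passed for 0 of the 9 genes and for 0% of all genes (edgeR), and 0 of the 9 had an unadjusted p under 0.05. Neither DESeq2 nor limma voom called any of the 9. The values ran from -0.82 ± 0.701 for Trp63 to 0.40 ± 0.708 for Brca1 (edgeR adjusted p = 0.913 and 0.981). For Chek1 the value was -0.18 ± 0.683, so a difference of 1 log2 unit between the genotypes in either direction lay within 2 standard errors of it.

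**Figure D3:**
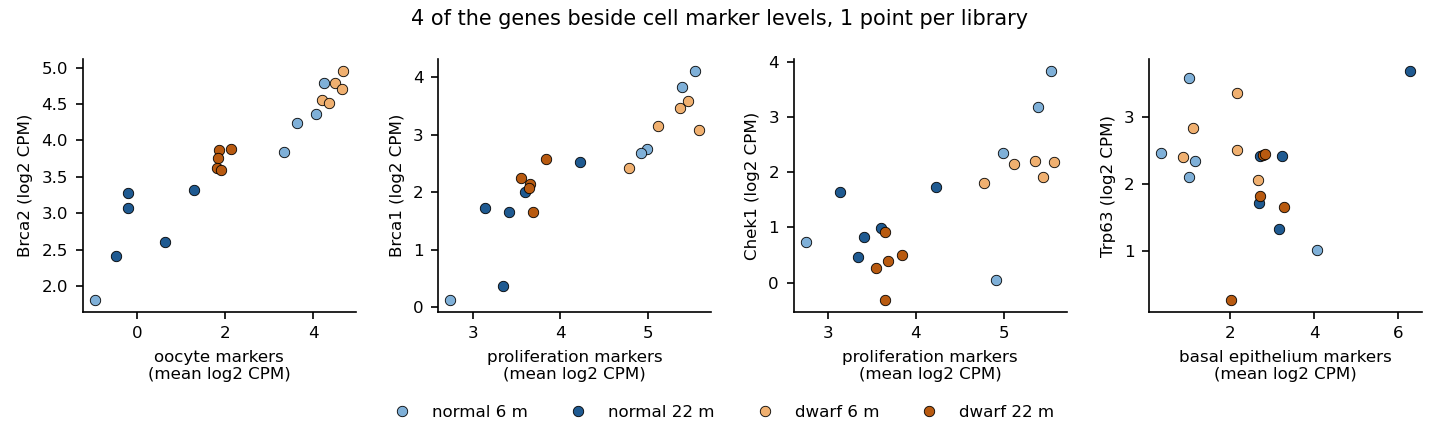
Log2 CPM of Brca2, Brca1, Chek1 and Trp63 (vertical axes) against a marker list's mean log2 CPM (horizontal axes), 1 point per library, 20 in each panel. Brca2 lay along the oocyte score (r = 0.946), Brca1 along the proliferation score (r = 0.887), Chek1 more loosely along the proliferation score (r = 0.716), and Trp63 had no trend with the basal epithelium score (r = -0.022).

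Levels of cell markers also differed with age. Beside the counts below, 667 of all 16099 genes fell and 419 rose in normal mice. In dwarf mice 1332 fell and 470 rose. Of 16 oocyte markers, 13 fell with age in normal mice (median log2 change -4.06) and 12 in dwarf mice (-2.77). Their summed level ranged from 49.4 to 751 CPM in young and from 42.2 to 117 CPM in old normal ovaries, and from 780.1 to 1043 CPM in young and from 262 to 505 CPM in old dwarf ovaries. Of 20 proliferation markers, 14 fell in normal mice (-1.49) and 16 in dwarf mice (-1.71). Their sums ranged from 252 to 1126 and from 297 to 571 CPM in young and old normal mice, and from 691 to 1031 and from 359 to 405 CPM in young and old dwarf mice. In normal mice 8 of 11 lymphocyte markers (median 3.06) and 4 of 8 macrophage markers (1.60) rose, and 1 of 10 granulosa markers fell, all 10 having negative log2 changes (-1.55). Normal 22-month replicate 3 held a lymphocyte sum of 1139.6 CPM, where the group median was 69.7 CPM. Without the 3 libraries that stand apart, 7 of 11 lymphocyte markers rose in normal mice (1.91), where 2741 of 16366 genes rose. In dwarf mice none of the lymphocyte or macrophage markers passed, though 10 of 11 (0.64) and 8 of 8 (0.31) had positive log2 changes. The difference of age responses passed for 0 markers of both lists. Of 10 granulosa markers 1 fell in dwarf mice (-1.01). The part of these cell markers in the levels of the 9 genes was not tested.

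Over the 20 libraries, which share groups and depth, the log2 CPM of Brca2 had a Pearson r of 0.946 with the oocyte score, 0.915 for deviations from group means and 0.936 without the 2 libraries farthest from the median. For Brca1 and the proliferation score these were 0.887, 0.902 and 0.904, and for Chek1 and that score 0.716, 0.572 and 0.642. These genes had high r with other lists too. Brca2 had r of 0.881 with the proliferation score (0.906 for deviations), Brca1 of 0.844 with the oocyte and 0.842 with the granulosa score, and Chek1 of -0.702 with the oviduct score. Atm had r of 0.155 with the oocyte score, and 0.374 without its 2 farthest libraries. Palb2 had r of 0.179 with the oocyte and 0.223 with the proliferation score. Without its 2 farthest libraries, 1 of them the library where Palb2 was at 0, these were 0.696 and 0.777. Chek2 ran the other way, at -0.645 with the oocyte and -0.507 with the proliferation score (-0.547 and -0.331 without its 2 farthest libraries). For Trp63 and basal epithelium r was -0.022, with 0.094 for deviations and 0.070 without the 2 farthest libraries. Oviduct and ciliated cell markers summed to between 86.2 and 1892 CPM in young and between 2244 and 3847 CPM in old dwarf ovaries, so that every old dwarf mouse was above every young one. In normal ovaries the sums ranged from 55.0 to 6859 CPM at 6 months (median 170) and from 2346 to 4124 CPM at 22 months (median 2619). Young normal replicate 2, at 6859 CPM, was above every old one, and the next young library held 252 CPM. The part of these oviduct markers was not tested either.

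Among all 16098 other tested genes, those with the pattern over libraries closest to each of the 9 were found by Pearson's r of log2 CPM over the 20 libraries. Closest to Brca2 were Zp1, Nlrp5 and Kpna7 (r = 0.965, 0.962 and 0.959), of which Zp1 encodes a protein of the egg coat and Nlrp5 a maternal protein of the oocyte. Closest to Brca1 were Vcan, Clspn and Dpf3 (0.947, 0.934 and 0.920), and Clspn encodes claspin, the adaptor through which ATR activates CHK1. Closest to Chek1 were Slx4, Zbed4 and Spata2 (0.901, 0.892 and 0.879), and Slx4 encodes a scaffold for nucleases. Closest to Mre11a were Gen1 (0.854), a resolvase of recombination, and Mfsd7b and Wdhd1. For Wdhd1, r was 0.847, and 0.524 without the 2 libraries farthest from the median of Mre11a.

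Closest to Atm were Smg1 (0.894), a kinase of the same family, A630007B06Rik and Tnpo1, and closest to Chek2 was the mitochondrial carrier gene Sfxn1 (0.883), then Acad9 and Pafah2. Closest to Palb2 were Pask (0.973), Lemd3 and 2900076A07Rik, and r was 0.855, 0.741 and 0.632 without the 2 libraries farthest from the median, 1 of them the library at 0. Closest to Trp53 were Raver1 (0.906), Tmem39b and Dcakd. Trp63 had the loosest neighbours, Cep70, the DNA ligase gene Lig1 and Cbfa2t2 (0.782, 0.767 and 0.749). Among the 36 pairs of the 9 genes, 27 had r above 0 and the median was 0.292, with Brca1 and Brca2 at 0.872 and Brca1 and Chek1 at 0.689.

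**Figure D4:**
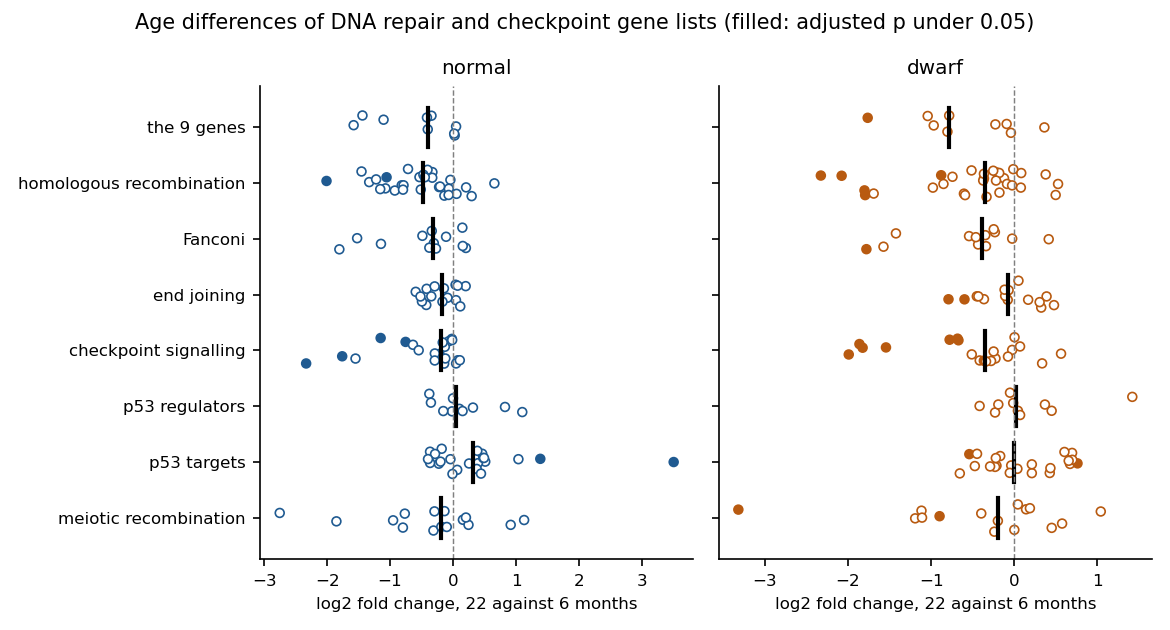
Log2 differences of the 9 genes (top row) and of the tested genes of 7 pathway lists, 1 point per gene, with the list's median as a bar, between old and young mice, normal and dwarf (horizontal axes). Points past the edgeR threshold are filled. With age in dwarf mice the filled points of the 7 lists lie below 0 for 19 genes and above it for 1.

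The wider pathways were followed through 7 lists holding 124 tested genes beside the 9. With age in dwarf mice 19 of the 124 fell and 1 rose (16.1%, where 11.2% of all genes passed), and leaving out 1 library gave 11 to 19 that fell, with the fewest, 11, when dwarf 6-month replicate 5 was absent and 12 when dwarf 22-month replicate 2 was absent. Fitted on the dwarf libraries alone, 35 of 122 fell and 10 rose, where 33.5% of all genes passed, and with limma voom 44 of 124 fell and 18 rose, where 46.7% of all genes passed. With age in normal mice 6 fell and 2 rose (6.45%, where 6.75% of all genes passed), and without normal 6-month replicate 2 these were 26 and 13, where 26.9% of all genes passed. Without the 3 libraries that stand apart 39 fell and 11 rose in normal mice, and 28 fell and 6 rose in dwarf mice, where 29.6% and 28.7% of all genes passed. Between genotypes Cdc25b and Xpc were higher and Cdkn1a and Gadd45a lower in dwarf mice at 6 months (3.23%, against 4.57% of all genes), and Stag3 was higher and Pmaip1 lower at 22 months (1.61%, against 3.81%). Reads of Gadd45a are uncertain, since 19.4% of its exon length overlaps a gene on the other strand. At 6 months none of the 124 passed without dwarf replicate 1 or without dwarf replicate 5. At 22 months none passed without dwarf replicate 1 or dwarf replicate 3.

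Of 30 genes of homologous recombination, 5 fell with age in dwarf mice and 2 in normal mice, with medians of -0.35 and -0.47. Of all genes 8.27% fell in dwarf mice. In normal mice 6.75% passed in either direction and 667 of 16099 fell. These shares hold for the lists below too. Without the 3 libraries that stand apart, 8 of the 30 fell in dwarf and 14 in normal mice, and 1 rose in each. In those fits 28.7% and 29.6% of all genes passed in either direction, and 2515 and 2107 of 16366 fell. Exo1, an exonuclease of resection, fell in dwarf mice from 10.5 ± 1.79 to 2.60 ± 0.966 CPM (SD, n = 5; log2 change -2.08 ± 0.453, edgeR adjusted p = 0.00793), and in normal mice from 8.80 ± 4.85 to 2.21 ± 0.384 CPM (-2.01 ± 0.460, edgeR adjusted p = 0.0154). Exo1 passed in dwarf mice in each of the 10 fits with 1 library left out. Of 12 genes of the Fanconi pathway, 1, the ubiquitin enzyme gene Ube2t, fell in dwarf mice, a call kept in 1 of the 10 such fits, and 0 passed in normal mice. Without the 3 libraries that stand apart, 3 of the 12 fell in dwarf and 5 in normal mice, and 0 rose.

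Of 20 genes of checkpoint signalling, 8 fell with age in dwarf mice and 4 in normal mice, with medians of -0.35 and -0.19. Of all genes 8.27% fell in dwarf mice. In normal mice 6.75% passed in either direction, and 667 of 16099 fell. Without the 3 libraries that stand apart, 9 fell and 1 rose in dwarf mice, and 10 fell and 0 rose in normal mice. In those fits 28.7% and 29.6% of all genes passed in either direction, and 2515 and 2107 of 16366 fell. Plk1, the kinase that restarts the cycle after a checkpoint, fell from 42.1 ± 7.25 to 12.3 ± 1.30 CPM in dwarf mice (log2 change -1.86 ± 0.345, edgeR adjusted p = 0.00344) and from 29.5 ± 13.7 to 8.72 ± 2.79 CPM in normal mice (-1.76 ± 0.347, edgeR adjusted p = 0.00977). Timeless, a fork protection gene, fell in dwarf mice from 31.4 ± 3.90 to 11.4 ± 1.86 CPM (-1.54 ± 0.317, edgeR adjusted p = 0.00590). H2afx, the histone variant that ATM marks at breaks, fell in normal mice from 62.7 ± 13.1 to 38.1 ± 5.07 CPM (-0.75 ± 0.170, edgeR adjusted p = 0.0150). Each of these calls held with any 1 library left out.

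Of 15 genes of end joining, 2 fell in dwarf mice and 0 passed in normal mice, with medians of -0.08 and -0.17. The 2 were Xrcc1, a scaffold of single-strand break repair (98.8 ± 9.05 to 69.0 ± 6.84 CPM, log2 -0.60 ± 0.108, edgeR adjusted p = 0.00288), and Parp1, a break sensor (237 ± 25.7 to 145 ± 18.2 CPM, -0.79 ± 0.187, edgeR adjusted p = 0.0120). Without the 3 libraries that stand apart, 2 of the 15 fell in dwarf and 4 in normal mice, and 1 rose in each. Of 24 genes of meiotic recombination 15 had enough counts to be tested, and 2 fell in dwarf mice, Smc1b and Syce2. The call of Syce2, a gene of the synaptonemal complex, was kept in 1 of 10 fits with a library left out, and that of Smc1b in each. Smc1b, a meiotic cohesin, fell from 2.39 ± 0.226 to 0.272 ± 0.213 CPM (-3.32 ± 0.792, edgeR adjusted p = 0.0127). Of 10 regulators of p53 none passed in edgeR with all libraries in any comparison of age or genotype. Without the 3 libraries that stand apart, 1 rose and 2 fell with age in normal mice, where 29.6% of all genes passed. In that fit 1 was higher and 1 lower in dwarf mice at 6 months, where 12.2% of all genes passed. DESeq2 called 1, higher with age in normal mice, where it called 11% of all genes.

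Targets of p53 had calls in both directions. Of 22, Pmaip1 and Fas rose with age in normal mice, and Ccng1 rose and Bax fell in dwarf mice, with medians of 0.32 and 0.0011. Of all 16099 genes 419 rose in normal mice, and 470 rose and 1332 fell in dwarf mice. Without the 3 libraries that stand apart, 7 of the 22 rose and 1 fell in normal mice, and 3 rose and 2 fell in dwarf mice. In those fits 29.6% and 28.7% of all genes passed in either direction. In dwarf mice Ccng1, which encodes cyclin G1, rose by 0.76 ± 0.189 on the log2 scale, from 28.4 ± 6.22 to 50.7 ± 4.14 CPM (edgeR adjusted p = 0.0154), and passed with any 1 library left out, while Bax kept its call in 2 of 10 such fits and Fas in 4 of 10. Pmaip1, which encodes the cell death factor NOXA, held 0.568 ± 0.382 CPM in young and 5.63 ± 7.42 CPM in old normal mice (3.50 ± 0.753, edgeR adjusted p = 0.0126) and passed with any 1 library left out. Its log2 change was then between 2.25 and 4.01, the lowest being without normal 22-month replicate 2. In young mice Cdkn1a, which encodes the cell cycle inhibitor p21, was lower in dwarf than in normal ovaries, at 27.5 ± 12.7 against 62.4 ± 25.2 CPM (-1.24 ± 0.310, edgeR adjusted p = 0.0271). That call was lost without normal 6-month replicate 4 or without dwarf 6-month replicates 1, 3, 4 or 5 (edgeR adjusted p from 0.0542 to 0.0925). Luteal markers differed between the same groups, 3 of 8 being lower in dwarf mice (median -2.12), as were 370 of all 16099 genes. At 22 months 3 of 8 were lower (-1.83), as were 299 of all 16099 genes. The part of the luteal markers was not tested. Trp53 itself, as given above, passed in none of these comparisons with all libraries.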

How the data were processed

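Ovarian polyadenylated RNA of 20 mice was sequenced, 1 library per mouse, with RNA extracted by Trizol per the labels' protocols. The authors deposited raw counts of reads per gene in HTSeq format; the submitters' processing notes name mm10, HTSeq, TopHat2 2.0.10, Bowtie2, edgeR, DESeq and TopHat. How reads were assigned to strands or to overlapping genes is not given in the sources used here. Summary rows (9.84 to 17.6% of each file's counts) entered neither totals nor tests. Groups came from the labels. No per-sample column was left unused (0).

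CPM are counts scaled to a library's total over genes, and RPKM divide these by the merged exon length of the deposited annotation. Counts were fitted in R 4.3.3 with edgeR 4.0.16 (TMM scaling, filterByExpr with minimum count 10 and minimum total 15, robust quasi-likelihood fit of 4 group means, 16099 genes, common dispersion 0.165), with p-values adjusted by Benjamini-Hochberg over all genes tested and a threshold of 0.05. The SE is the size of the log2 change divided by the root of F. Log2 CPM for correlations and marker scores (the mean over a list) use a prior count of 2. The test was also run on simulated data.

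The genes and lists were chosen with earlier results of these data known. Named are the 9 genes, up to 3 passing genes of smallest p per list and comparison, and the 3 likest genes of each. Some genes that this rule names are left out here. Alternatives were scaling by RLE or upper quartile, filters of none or of 1 CPM in 5 libraries, DESeq2 1.42.0, voom with quality weights in limma 3.58.1, estimates without robust fitting, fits of only the groups compared, a replicate block, leaving out each library in turn, and leaving out the libraries whose titles bear numbers 21 to 23. Chosen after seeing the data were the fits without 3 libraries that stand apart, with dwarf 22-month replicates 1 and 4 summed, and without Rn45s and Lars2, and the promoter motifs. The limit set by a count of 0 covers counting error only.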

Additional observations from a re-analysis of the deposited data

Results flagged for a closer look

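In 36 sets of 5 libraries, 1 per gene and group, the highest and lowest library were compared with the rest by Dixon's ratio, and 2 sets passed its critical value of 0.71. Chance gives about 1 in 20. For Atm, dwarf 22-month replicate 5 was far below its group, at 19.26 CPM, where the next library held 24.11 and the highest 25.8 CPM (a gap of 0.741 of the range). It was also the dwarf 22-month library with the lowest Brca2, Palb2, Chek2 and Trp63, and the shallowest of that group, at 5399377 counts. Its Trp53 was the highest of the group (193.54 CPM), and its Mre11a and Brca1 (14.261 and 4.8154 CPM) were above the group medians. For Chek2, normal 6-month replicate 2 was far above its group, at 17.11 CPM, where the next held 10.4 and the lowest 8.05 CPM (0.741 of the range). This is the library with few oocyte, granulosa and luteal markers and many oviduct markers (oocyte sum 49.4 CPM, oviduct sum 6859 CPM), and the part of its cell makeup in the Chek2 level was not tested. Without it, dwarf minus normal for Chek2 at 6 months was -0.37 on the log2 scale (edgeR adjusted p = 0.297), against -0.64 with it.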

How the results depend on the processing

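The number of the 9 genes called was 0 with age in normal mice and 1 in dwarf mice, 0 between genotypes and 0 for the difference of age responses. DESeq2 gave 3, 2 and 1 (age in normal, age in dwarf and genotype at 6 months), limma voom 3, 4 and 1 (the last for genotype at 22 months), and the fit without the 3 libraries that stand apart 5, 4, 1 and 1. Only the groups compared gave 4 in dwarf mice, and the summed replicates gave 0. With 1 library left out the counts ranged from 0 to 4 in normal and from 0 to 1 in dwarf mice. The cause was not tested. None of the values whose sign turned was called with all libraries. With age in normal mice these were Atm (voom -0.30, replicate block -0.0029, without titles 21 to 23 -0.12, without the 3 libraries -0.35, summed -0.025, left-out range -0.18 to 0.16), Chek2 (titles -0.0055, summed -0.00042, range -0.081 to 0.33) and Trp63 (voom -0.41, without the 3 -0.21, summed -0.028, range -0.46 to 0.49). With age in dwarf mice they were Atm (titles 0.019, range -0.14 to 0.060) and Mre11a (RLE 0.0034, upper quartile 0.011, 1 CPM filter 0.00077, DESeq2 0.0019, groups alone 0.0025, range -0.14 to 0.092). For genotype at 6 months they were Atm (DESeq2 -0.0095, voom -0.070, groups alone -0.014, without the 3 -0.13, summed -0.0078, range -0.060 to 0.11), Brca1 (replicate block 0.18, titles 0.32, range -0.31 to 0.30), Mre11a (upper quartile 0.0022, titles 0.018, range -0.088 to 0.054) and Trp63 (without the 3 -0.12, range -0.038 to 0.65). At 22 months they were Atm (voom 0.18, titles 0.26, without the 3 0.17, range -0.16 to 0.18), Trp63 (voom 0.087), Palb2 (range -0.014 to 0.35) and Trp53 (range -0.0015 to 0.14). For the difference of age responses they were Atm (voom 0.25, titles 0.14, without the 3 0.30, range -0.22 to 0.12), Brca2 (titles -0.025, range -0.071 to 0.39), Chek1 (voom 0.24, without the 3 0.56, range -0.66 to 0.079), Chek2 (voom -0.027) and Palb2 (voom 0.19, without the 3 0.16).

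The replicate numbers do not pair the samples: same-numbered libraries had correlations of deviations from -0.0898 to 0.287 (age, normal), -0.187 to 0.388 (age, dwarf), -0.215 to 0.719 (genotype, 6 months) and -0.208 to 0.0987 (genotype, 22 months), and 2, 1, 1 and 1 of 5 correlated best with their own number. With the replicate block 0 of the 9 were called with age in normal mice, 1 in dwarf mice, and 0 otherwise, and 1121, 1904, 672, 560 and 0 of all genes. In normal mice the pathway genes named for age passed in no fit of the normal libraries alone, and without titles 21 to 23 Exo1, Fas and Pmaip1 also missed (edgeR adjusted p = 0.0651, 0.252 and 0.0600). Depth limits Chek1, Trp63 and Palb2, with 6 to 18, 6 to 63 and 12 to 62 counts per old dwarf library.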
